A study of Mus musculus with 6 samples.

Results

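The genes described here are 10 immediate early genes of the AP-1 and EGR group, measured in mammary tumours of female mice: Fos, Fosb, Fosl2, Jun, Junb, Jund, Egr1, Atf3, Ier2 and Zfp36. They were taken by name, as every probe set annotated to exactly 1 gene symbol with that symbol among the 10, which gave 11 probe sets for 10 genes out of 22626 probe sets and 12393 genes with a single symbol. Jun had 2 probe sets and every other member had 1. Tumours came from 2 crosses, with 3 arrays each: adult F1 females of AKR/J with PyMT animals (AKR F1) and adult F1 females of DBA/2J with PyMT animals (DBA F1). All of them descend from a PyMT parent, which carries the polyomavirus middle T antigen, an oncoprotein that signals through Src-family kinases, PI3-kinase and the Ras-MAP kinase route. The groups therefore share the PyMT parent and differ in the inbred parent. The labels give neither the promoter of the transgene nor the exact ages, and whether every array stands for its own animal is not said, so the p-values cover only the spread among these samples, which may be partly technical.

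Immediate early genes are transcribed within minutes of a growth factor, stress or wounding signal, without new protein synthesis, and their mRNAs are short-lived. FOS proteins (Fos, Fosb, Fosl2) bind DNA as dimers, chiefly with JUN proteins (Jun, Junb, Jund), whereas JUN proteins can also pair with one another. Either kind of dimer is called AP-1. Egr1 is a zinc finger transcription factor induced through serum response factor and its ETS partners, Atf3 is a stress-induced bZIP factor that pairs with JUN proteins, Ier2 is an early response nuclear protein, and Zfp36 (tristetraprolin) binds AU-rich elements and speeds the decay of mRNAs, including those of cytokines. In mammary epithelium these genes respond to EGF-like ligands and to tissue handling alike.

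The promoters of Zfp36 and Fos, which lay higher in DBA F1 tumours, of Jun, which lay higher in AKR F1 tumours, and of Fosb are shown as examples that hold motifs marked below. The RefSeq promoter table of build GRCm38.p6 matched 8 of the 10 members, without Egr1 and Ier2, and its sequences are those of the reference mouse strain, not of AKR/J or DBA/2J. Each line gives the 250 bases before the annotated start, 5′ to 3′ on the strand of the gene, with a CArG box (the serum response factor site), the EGR motif GCGNGGGCG, the CRE core TGACG and the Jun-type AP-1 motif TGACATCA in capitals on either strand.
Fos (chr12:85473640-85473889, plus strand): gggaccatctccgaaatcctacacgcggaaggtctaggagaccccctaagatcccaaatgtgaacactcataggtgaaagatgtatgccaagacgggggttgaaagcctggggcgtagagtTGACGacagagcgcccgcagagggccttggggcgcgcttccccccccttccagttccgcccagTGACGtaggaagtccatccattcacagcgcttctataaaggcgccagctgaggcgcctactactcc
Zfp36 (chr7:28379229-28379478, minus strand): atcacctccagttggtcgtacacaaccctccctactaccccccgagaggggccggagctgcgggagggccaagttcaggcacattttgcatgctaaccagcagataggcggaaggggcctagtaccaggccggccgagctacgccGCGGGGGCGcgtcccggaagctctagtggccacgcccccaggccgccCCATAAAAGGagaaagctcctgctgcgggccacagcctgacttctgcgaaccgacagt
Jun (chr4:95052223-95052472, minus strand): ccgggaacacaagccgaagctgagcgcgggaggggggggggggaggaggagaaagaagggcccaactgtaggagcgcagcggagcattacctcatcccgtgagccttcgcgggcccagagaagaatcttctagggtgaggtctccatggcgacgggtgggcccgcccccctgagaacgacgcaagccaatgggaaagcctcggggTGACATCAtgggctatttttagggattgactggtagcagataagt
Fosb (chr7:19310046-19310295, minus strand): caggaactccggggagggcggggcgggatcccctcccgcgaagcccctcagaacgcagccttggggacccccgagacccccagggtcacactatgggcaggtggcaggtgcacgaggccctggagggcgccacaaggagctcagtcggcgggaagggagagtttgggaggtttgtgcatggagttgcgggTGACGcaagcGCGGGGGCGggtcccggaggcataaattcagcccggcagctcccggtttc

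Zfp36 was the 1 member of the 8 with a CArG box in this window, 58 to 49 bases before its start, and 1.47% of the 32851 promoter windows in the table held one (genes with several starts count more than once). The EGR motif was found in 3 of the 8, Zfp36 (105 to 97 bases before the start), Fosb (50 to 42) and Fosl2 (79 to 71), against 4.7% of all windows. The CRE core was found in Fos, Fosb, Junb and Atf3, against 17.8% of windows, and in Fos it occurred at 129 to 125 and at 66 to 62 bases before the start, the latter upstream of the TATAAA at 33 to 28. The Jun window held TGACATCA at 45 to 38 bases before its start, a motif present in 2.93% of windows. Neither the full CRE TGACGTCA (1.55% of windows) nor the AP-1 motif TGANTCA (6.75% of windows) occurred in any of the 8. The GC box GGGCGG, in 32.7% of windows, was found in 6 of the 8 members. It overlaps the EGR motif in Fosb and Fosl2 and shares 1 base with the CArG box in Zfp36. Such matches describe letters in the reference sequence and were not set against the expression values.

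Across the arrays, 3 members lay about a doubling higher in tumours of the DBA F1 group, Fos (2.22-fold), Egr1 (2.16-fold) and Zfp36 (1.98-fold), while all 3 JUN family members lay on the other side of zero, by 1.35-fold (Jund) to 1.54-fold (Junb). None of the 10 passed limma's test over all 22626 probe sets at an adjusted p of 0.05, where 0.0972% of probe sets did. At an unadjusted p under 0.05 by limma, 4 of the 10 counted, Fos, Egr1 and Zfp36 higher in DBA F1 and Jun higher in AKR F1, which is 40% against 26.1% of all probe sets (by direction, 12.9% in AKR F1 and 13.2% in DBA F1). The values of the crosses did not overlap for 6 of the 10 (60%), against 39.2% of all probe sets. Of these 6, 4 were higher in DBA F1 (40%, against 15.8% of all probe sets) and 2 in AKR F1 (20%, against 23.4%). Relaxing the adjusted p to 0.10 would take in Egr1 and Zfp36 (20%, against 3.58%). The median log2 difference over the members, AKR minus DBA throughout, was -0.017, with 5 members on either side, against 0.049 over all probe sets. In bulk tumour RNA, fewer cells that transcribe a gene and less of its RNA per cell cannot be told apart, nor was a strain difference in the sequence under the probes tested.

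**Figure D1:**
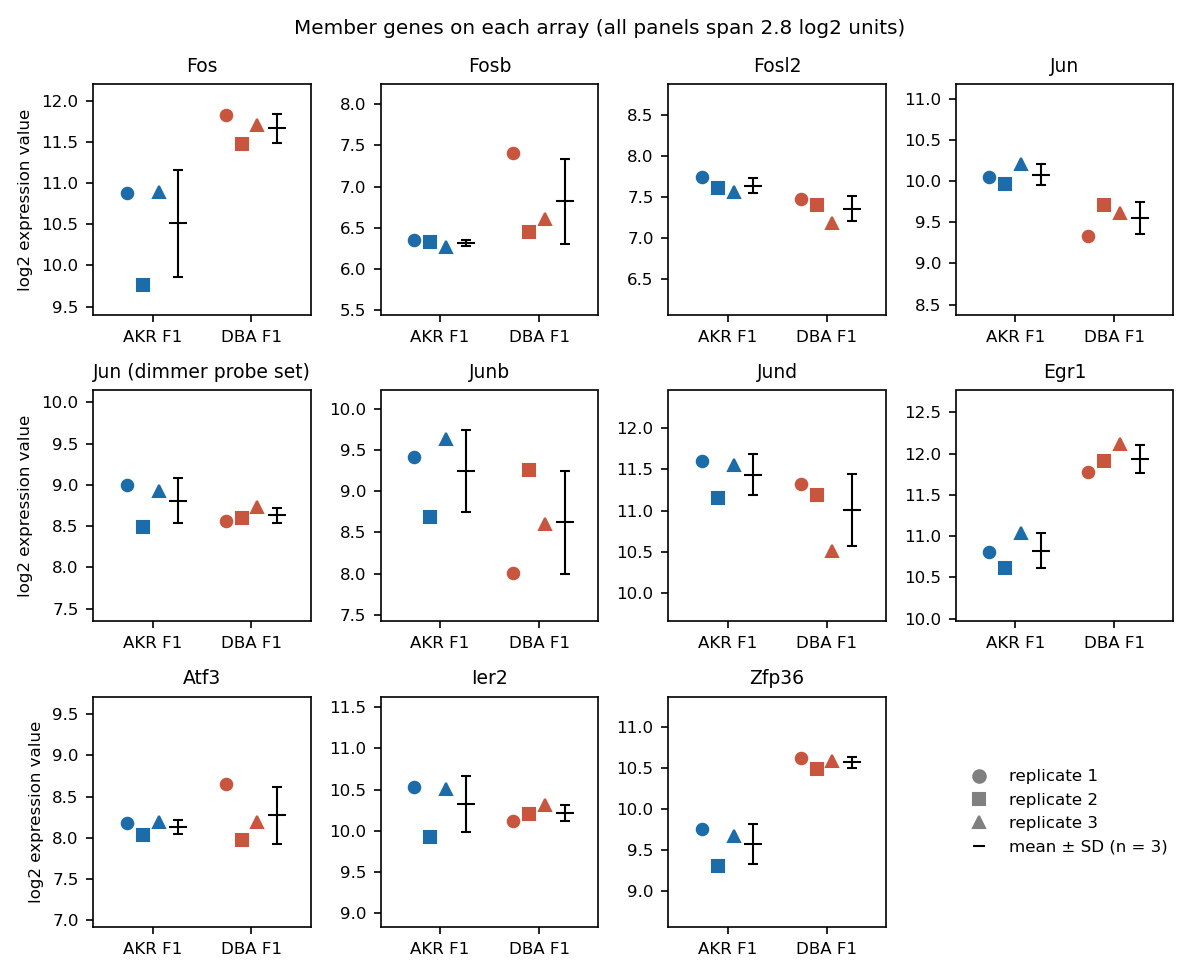
Log2 expression value (vertical axis, each panel spanning 2.8 units) of every member probe set on the 3 AKR F1 arrays (blue) and the 3 DBA F1 arrays (red), with the mean and SD of each cross beside the points. Fos, Egr1 and Zfp36 show a clear gap with DBA F1 above, Jun at its brighter probe set shows a smaller gap with AKR F1 above, and Junb, Jund, Atf3 and Ier2 overlap.

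Egr1 stood at log2 values of 10.81, 10.61 and 11.04 on AKR F1 arrays 1, 2 and 3 and at 11.77, 11.91 and 12.12 on DBA F1 arrays 1, 2 and 3. The lowest DBA F1 value lay 0.74 above the highest AKR F1 value, a gap wider than the range within either cross (0.42 in AKR F1 and 0.35 in DBA F1). The log2 difference was -1.11 (SE 0.16; a 2.16-fold difference with a 95% interval of 1.67 to 2.81; limma adjusted p = 0.0661). By unadjusted p Egr1 ranked 75 among all probe sets, and 2.55% of probe sets had a difference at least as large. Over 14 alternative settings its limma adjusted p ran from 0.011 to 0.329, and it passed 0.05 in 4 of them. These were leaving out DBA F1 array 1 (0.047), leaving out AKR F1 array 2 as well (0.033), testing only probe sets brighter than the median (0.0409) and array weights (0.011).

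Zfp36, the mRNA decay factor, had the tightest values in DBA F1 tumours: 10.62, 10.49 and 10.58 on arrays 1, 2 and 3. The AKR F1 arrays read 9.76, 9.30 and 9.68, so the crosses were separated by 0.73. Its log2 difference was -0.98 (SE 0.15; 1.98-fold, 95% interval 1.54 to 2.54; limma adjusted p = 0.0726), which ranked 114 by unadjusted p. Its limma adjusted p ran from 0.0104 to 0.355 over the alternatives and passed in 3, namely the brighter probe sets (0.049), array weights (0.0104) and without both AKR F1 array 2 and DBA F1 array 1 (0.0388).

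Fos stood at 10.88, 9.77 and 10.89 in AKR F1 and at 11.82, 11.48 and 11.70 in DBA F1 tumours. AKR F1 array 2 was more than a log2 unit below the other arrays of its cross, and the crosses did not overlap with or without it. The log2 difference was -1.15 (SE 0.31; 2.22-fold, 95% interval 1.33 to 3.72; limma adjusted p = 0.118), and it was -0.78 without AKR F1 array 2 and -0.70 without DBA F1 array 1 as well. The limma adjusted p of Fos ran from 0.0225, with array weights, to 0.396 over the alternatives, and every other setting left it above 0.05.

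The remaining FOS genes were dim and split in direction. Fosb read 6.35, 6.33 and 6.27 in AKR F1 and 7.41, 6.45 and 6.60 in DBA F1 tumours. Its crosses were separated by only 0.11, and DBA F1 array 1 stood apart. The Fosb difference of -0.51 (SE 0.25; limma adjusted p = 0.231) was -0.21 without that array. Fosl2, whose protein lacks the strong transactivation domain of Fos, read 7.74, 7.61 and 7.56 in AKR F1 and 7.48, 7.40 and 7.19 in DBA F1 tumours. The crosses touched to within 0.08, and the difference of 0.28 (SE 0.13; limma adjusted p = 0.21) stayed positive, at 0.20 to 0.37, in the 13 alternatives that held the probe set. Fosb and Fosl2 lay in deciles 4 and 5 of level, where the median difference of all probe sets was 0.20 and 0.12. Set against the median of their decile, over all 6 arrays, Fosb differed by -0.71 and Fosl2 by 0.17.

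Jun, the founding JUN family member, stood at 10.05, 9.96 and 10.21 in AKR F1 and at 9.33, 9.70 and 9.61 in DBA F1 tumours at its brighter probe set. The lowest AKR F1 value was 0.25 above the highest DBA F1 value. The log2 difference was 0.53 (SE 0.15; 1.44-fold, 95% interval 1.13 to 1.83; limma adjusted p = 0.12). The dimmer Jun probe set read 8.996, 8.49 and 8.93 against 8.56, 8.60 and 8.73. There the crosses overlapped, with AKR F1 array 2 the lowest of all 6, and the difference was 0.17 (limma adjusted p = 0.474). Averaged over both probe sets Jun differed by 0.35. The adjusted p of Jun by limma ran from 0.0279 to 0.388 over the alternatives and passed only with array weights.

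Junb, which is often a weaker activator than Jun, read 9.42, 8.69 and 9.63 in AKR F1 and 8.01, 9.26 and 8.60 in DBA F1 tumours. Its values were the most scattered within DBA F1 of all members, with a range of 1.25, and the crosses overlapped. The difference of 0.62 (SE 0.37; 95% interval -0.25 to 1.49; limma adjusted p = 0.285) was 0.32 without DBA F1 array 1 and 0.94 without DBA F1 array 2. Jund, the most constitutively expressed of the JUN genes, read 11.60, 11.16 and 11.56 against 11.32, 11.19 and 10.51. The lowest value was on DBA F1 array 3, and the difference of 0.43 (SE 0.24; 95% interval -0.15 to 1.01; limma adjusted p = 0.272) was 0.18 without that array. All 3 JUN genes kept a positive difference in each of the 14 alternatives, in which Jun ran from 0.35 to 0.74, Junb from 0.32 to 0.94 and Jund from 0.18 to 0.73.

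Atf3 and Ier2 were the members nearest to zero. Atf3 read 8.17, 8.04 and 8.19 in AKR F1 and 8.65, 7.97 and 8.19 in DBA F1 tumours, highest on DBA F1 array 1, where Fosb also stood highest. Its difference of -0.14 (SE 0.19; 95% interval -0.58 to 0.31; limma adjusted p = 0.617) became 0.05 without that array. Ier2 read 10.53, 9.93 and 10.50 against 10.12, 10.20 and 10.32, with AKR F1 array 2 below every DBA F1 array. The Ier2 difference of 0.10 (SE 0.19; 95% interval -0.34 to 0.55; limma adjusted p = 0.709) was 0.30 without AKR F1 array 2. These intervals leave room for differences of about 1.5-fold in either gene, so they do not show equal levels.

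**Figure D2:**
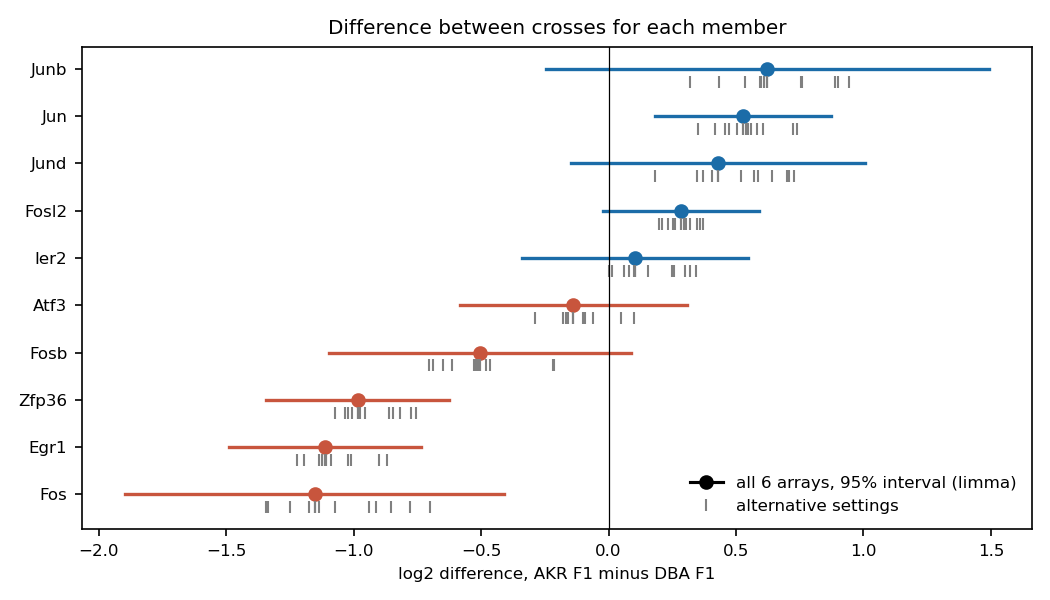
Log2 difference (horizontal axis, AKR F1 minus DBA F1) of each member at its brightest probe set, with limma's 95% interval over the 6 arrays (coloured line) and the estimate under each alternative setting (grey ticks). The intervals of Fos, Egr1 and Zfp36 lie below zero and that of Jun above it, and the ticks of Atf3 fall on both sides of zero.

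The difference between crosses depended on brightness over the whole array, and the members were mostly bright. Egr1, Fos, Jund and Ier2 lay in the top decile of level, where the median difference of all probe sets was -0.21, and Jun and Zfp36 lay in decile 9 (-0.21). Set against the median of their decile, Egr1 differed by -0.90, Fos by -0.94 and Zfp36 by -0.77, while Jun differed by 0.74, Junb by 0.77 and Jund by 0.64. The same shift came with quantile normalization, after which Egr1 differed by -0.87, Fos by -0.91, Zfp36 by -0.75, Jun by 0.74, Junb by 0.76 and Jund by 0.70. With that scaling 7 of the 10 members had an unadjusted p under 0.05 by limma, against 22.5% of all probe sets, Fosb, Jund and Ier2 being added. Cyclic loess normalization gave the same 7, against 23.2% of all probe sets. Fos, Egr1 and Zfp36 thus lay on one side of zero and the JUN genes on the other under each scaling. Junb did not reach an unadjusted p under 0.05 by limma with either normalization (0.061 with quantile, 0.064 with cyclic loess). On the deposited values neither Junb (0.133) nor Jund (0.121) did by limma.

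**Figure D3:**
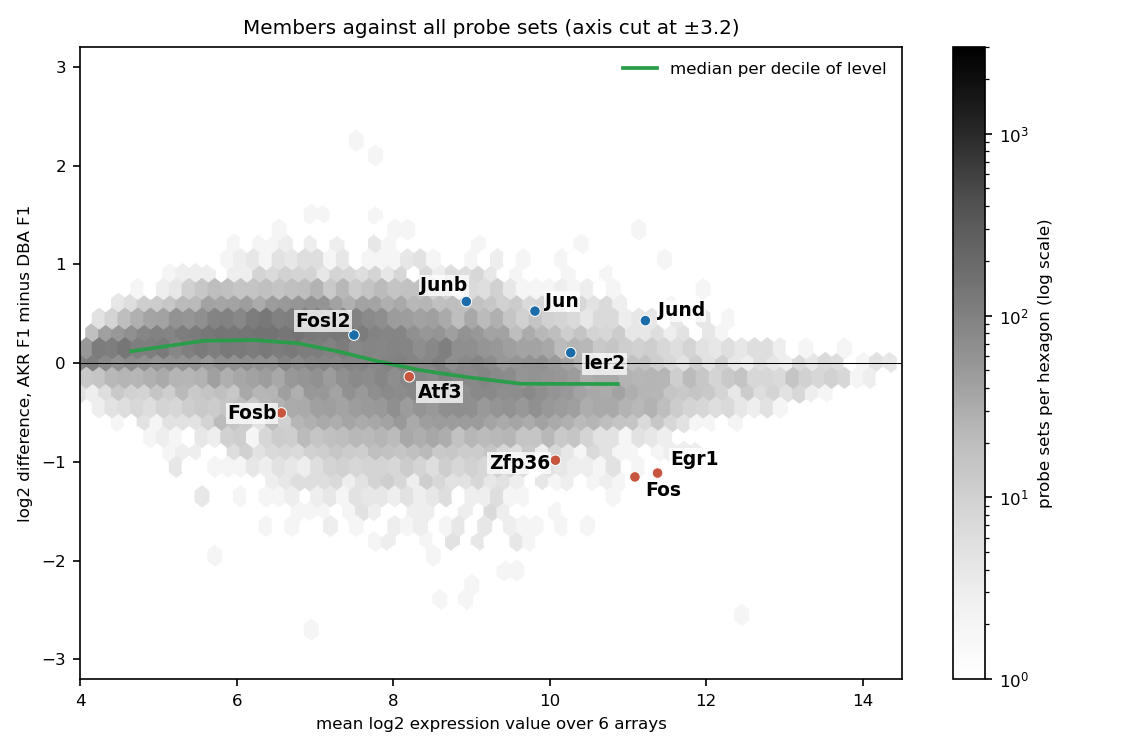
Log2 difference (AKR F1 minus DBA F1, vertical axis) against mean log2 expression value over the 6 arrays (horizontal axis) for all probe sets (grey hexagons, darker where denser on a log scale) and the 10 members (points). The green line, the median of each decile of level, falls from 0.23 in decile 3 to -0.21 in decile 10. Among the bright probe sets, Egr1 and Fos lie below that line and Jun and Jund above it.

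Among related genes, the other immediate early genes lay mostly higher in DBA F1 tumours. Of 33 listed, 31 were measured, and 23 of these (74.2%) were higher in DBA F1 tumours, against 45.4% of all probe sets. By limma's unadjusted p under 0.05, 10 were higher in DBA F1 tumours (32.3%, against 13.2% of all probe sets) and 1, the kinase gene Pim1, in AKR F1 tumours (3.23%, against 12.9%). None passed at an adjusted p of 0.05. Those with the smallest p were Ccn1 (-1.27), Errfi1, a feedback inhibitor of EGF receptor (-1.31), and Ccn2 (-1.93), the first and last being matricellular genes. Errfi1 read 10.92, 10.52 and 10.86 in AKR F1 and 12.34, 11.45 and 12.43 in DBA F1 tumours, higher on DBA F1 arrays 1 and 3. The median of the list was -0.26. Ccn1 lay in decile 9 of level and Errfi1 and Ccn2 in decile 10, where the median difference of all probe sets was -0.21. Set against that median they differed by -1.06, -1.10 and -1.72. The shares of all probe sets given here cover every level and were not matched to the brightness of the list.

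The AP-1 and EGR relatives outside the 10 members lay on both sides of zero. Of 12 measured dimer partners of AP-1, 8 were higher in AKR F1 tumours (66.7%, against 54.6% of all probe sets; median 0.25). Atf7, a bZIP factor (0.36), was the 1 with an unadjusted p under 0.05 by limma (8.33%, against 26.1%). Maf differed by 0.58, and by 0.31 without AKR F1 array 2. The repressor Jdp2 differed by -0.78, and a second Jdp2 probe set by 0.26. Of 5 measured EGR factors and NAB corepressors, Egr3 (0.38) had an unadjusted p under 0.05 by limma (20%, against 26.1%), higher in AKR F1 tumours and thus opposite to Egr1. Nab2, a corepressor that EGR factors bind, differed by 0.51, and by 0.27 without DBA F1 array 1. Egr4 differed by 0.59, and by 0.18 without AKR F1 array 2. Egr2 (-0.38) and Nab1 (-0.37) lay on the side of Egr1. Egr2 was at -0.14 without DBA F1 array 3 and at -0.63 without DBA F1 array 2, and Nab1 at -0.10 without AKR F1 array 2 and at -0.61 without AKR F1 array 3.

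Upstream kinases and transcription factors were split. Of 15 measured, 3 favoured DBA F1 (20%) and 2 favoured AKR F1 (13.3%) at limma's unadjusted p under 0.05, against 13.2% and 12.9% of all probe sets. Map2k1, a kinase that activates ERK (-0.65), Mapk9, a JUN N-terminal kinase (-0.68), and the ETS partner Elk4 (-0.34) were higher in DBA F1 tumours. Mapk9 was at -0.43 without AKR F1 array 2. Map2k2, which also activates ERK, differed by 0.12, and by 0.02 without AKR F1 array 1 or without DBA F1 array 3. The actin-regulated coactivators of serum response factor, Mrtfb (0.41) and Mrtfa (0.36), were higher in AKR F1 tumours, and Srf itself differed by -0.37 (unadjusted p = 0.119 by limma), by -0.23 without AKR F1 array 2 and by -0.20 without DBA F1 array 2.

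Downstream genes showed no common direction. Among 11 measured AP-1 targets (median 0.05), the stromelysin gene Mmp3 (-0.93) and the gelatinase gene Mmp9 (0.36) had an unadjusted p under 0.05 by limma in opposite directions (18.2%, against 26.1% of all probe sets). The urokinase gene Plau differed by 0.56, and by 0.28 without AKR F1 array 2. Among 10 measured ZFP36 paralogs and target mRNAs, Zfp36l2 (-1.02) and the chemokine gene Cxcl1 (-1.23) were higher in DBA F1 and Csf2 (0.52) in AKR F1 tumours at that threshold (30%, against 26.1%). Only the brightest of 3 Zfp36l2 probe sets went that way, and the other 2 had positive differences of up to 0.83. The classic decay target Tnf differed by 0.28, and by 0.17 without AKR F1 array 2. Il1b differed by -0.49, and by -0.31 without DBA F1 array 3. Il6, at a mean under 5 in both crosses, differed by 0.09 and changed sign without AKR F1 array 2 (-0.021).

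**Figure D4:**
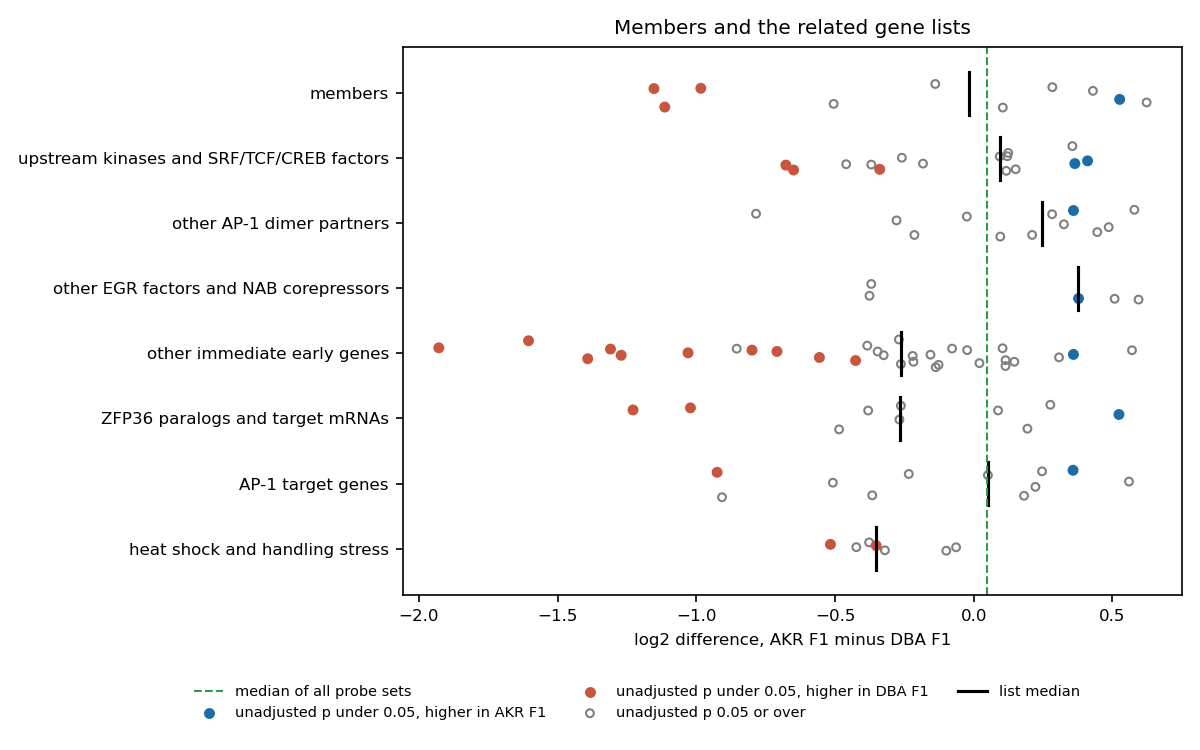
Log2 difference (AKR F1 minus DBA F1, horizontal axis) of each measured gene at its brightest probe set, by list (rows), with the list median (black bar) and the median of all probe sets (dashed line, 0.049). Filled points have an unadjusted limma p under 0.05, and those of the other immediate early genes lie almost wholly to the left, higher in DBA F1, whereas the members fall on both sides.

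Arrays stood apart in ways that the members partly shared. On AKR F1 array 2, 8 of the 10 members were lower than on both other AKR F1 arrays. So were 48.7% of all probe sets, 68.1% of those above the median level and 83.8% of those in the top decile of level. That array had the narrowest spread of values (SD 1.76, against 1.90 to 2.02 on the others). On DBA F1 array 1, Fosb and Atf3 were highest and Jun and Junb lowest of all 6 arrays. This array also had the highest skeletal muscle markers (list mean 11.46, against 5.86 on each other DBA F1 array) and adipocyte markers (8.61, against 5.77 and 6.40). AKR F1 arrays 1, 2 and 3 read 8.46, 8.02 and 9.74 for the skeletal muscle list and 6.71, 6.52 and 6.57 for the adipocyte list. All 7 skeletal muscle markers were higher in AKR F1 tumours on average, against 54.6% of all probe sets, though the array means of the crosses overlapped. Within DBA F1, skeletal muscle markers varied by 5.60, fibroblast markers by 2.20 and smooth muscle and myoepithelial markers by 1.56. The part of these tissues in the members' values was not tested.

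The luminal epithelial markers, among them Epcam and Krt8, stood at array means of 10.71 to 11.24 with no separation of the crosses. These are means over 8 markers, the dimmest at a mean of 6.51 over the 6 arrays. The presence of each marker was not tested, as no detection calls were used. Of 11 marker lists, 1 had array means that did not overlap between the crosses, the B and plasma cell list (5.87 to 6.13 for AKR F1, 6.62 to 7.01 for DBA F1). Among its 5 measured markers Pou2af1 and Jchain were higher in DBA F1 tumours on average (differences of -3.23 and -1.47, with Jchain at -0.92 without DBA F1 array 1 and -2.40 without DBA F1 array 2), whereas Cd79a, Cd79b and Pax5 overlapped or lay lower there, and the part of these cells in the members' values was not tested. Smooth muscle and myoepithelial markers stood at 8.21 to 8.56 in AKR F1 and at 8.26, 9.59 and 9.82 on the DBA F1 arrays. Of the 8 markers in that list, Acta2, Myh11 and Mylk were higher on every DBA F1 array than on any AKR F1 array (37.5%, against 15.8% of all probe sets). On average 6 of the 8 were higher in DBA F1 and 2 in AKR F1 tumours, with differences from -2.06 to 0.99. A second Myh11 probe set differed by 0.16 and a second Acta2 probe set by -0.20. The part of smooth muscle and myoepithelium in the members' values was not tested.

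Heat shock genes and RNA ends bear on tissue handling and RNA quality. All 7 measured heat shock genes were higher in DBA F1 tumours, against 45.4% of all probe sets (median -0.35). An unadjusted p under 0.05 by limma was reached by 2 of them (28.6%, against 13.2% in that direction), Hsph1 (-0.52) and the constitutive chaperone Hspa8 (-0.35, with 1 of its 4 probe sets opposite). The inducible Hspa1a differed by -0.42 and Hspa1b by -0.38, and by -0.21 and -0.15 without AKR F1 array 2. Hsph1, Hspa8 and Hsp90aa1 (-0.32) lay in deciles 9 and 10 of level, where the median difference of all probe sets was -0.21. Set against that median they differed by -0.31, -0.14 and -0.11. Under quantile normalization Hsph1 differed by -0.29 and Hsp90aa1 by -0.10, and under cyclic loess normalization Hspa8 differed by -0.16. The 3′ minus 5′ difference of the beta-actin control probe sets was 0.34, 0.36 and 0.51 on the AKR F1 arrays and 0.90, 0.36 and 0.69 on the DBA F1 arrays, and that of Gapdh was 0.05, 0.31 and 0.27 against 1.20, 0.12 and 0.75. Both differences were lowest within DBA F1 on array 2. The part of tissue handling and RNA ends in the members' values was not tested.

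**Figure D5:**
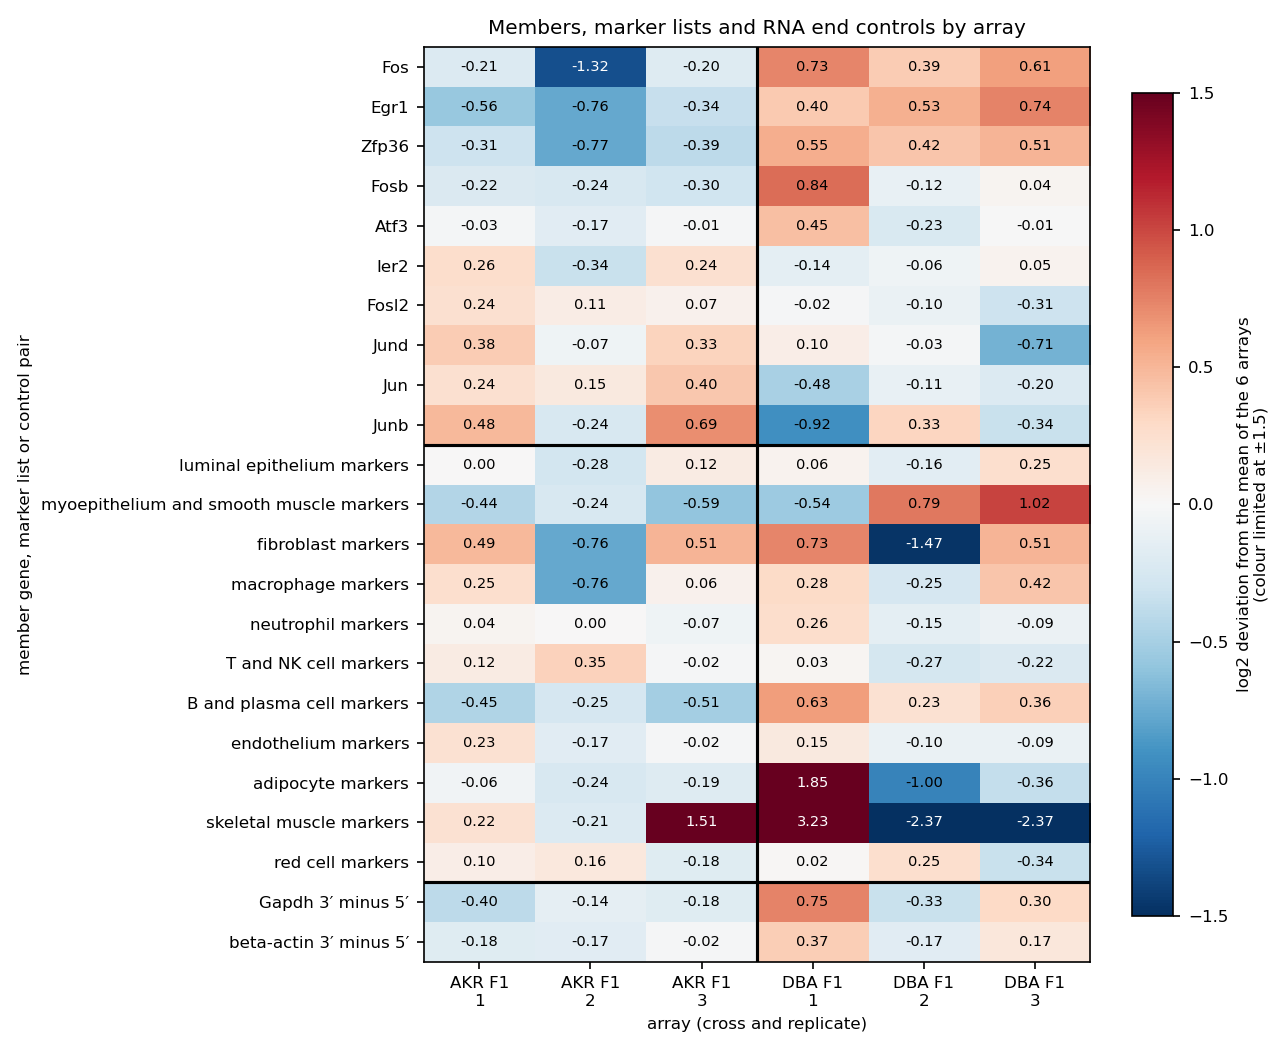
Log2 deviation of each array (columns) from the mean of the 6 arrays, for the 10 members ordered by difference (top), the mean of each marker list (middle) and the 3′ minus 5′ difference of 2 control transcripts (bottom). Fos, Egr1 and Zfp36 are positive on all 3 DBA F1 arrays and negative on all 3 AKR F1 arrays, whereas skeletal muscle and adipocyte markers peak on DBA F1 array 1.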

How the data were processed

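Total RNA of snap-frozen tumours was extracted with Trizol and biotin-labelled for the 6 Affymetrix arrays, per the labels' protocols. The deposited table holds log2 expression values of 22690 probe sets, a scale read from the values. MAS5 and RMA are named, per the submitters' processing notes, without saying which made the table; how background was corrected is not stated there, so dim differences can be compressed. Array medians ran from 7.52 to 7.57. No detection calls were used.

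Without 64 control probe sets, all 22626 others entered a two-sided limma fit (version 3.58.1, R 4.3.3; lmFit, then eBayes) with Benjamini-Hochberg adjustment across them. The platform annotation gave the symbols (20380 probe sets with 1 symbol, 691 with several, 1555 with none), and all 10 members carried the same symbol in the GRCm38.p6 gene table. Each gene was read at its brightest probe set. In figures ± is the SD over the 3 arrays of a cross. SE is limma's standard error of the difference between crosses, its variance shrunk towards a value shared by all probe sets. Besides all members, the rule named the 3 genes of smallest p in each of 7 related lists and, of 11 marker lists, the brightest gene and that of smallest p; other genes were named after their values were seen. Members and lists were chosen with earlier results of these data known. The fit was checked on simulated arrays. Promoter motifs were searched in 250 bases on both strands with Python 3.11.15, and figures drawn with matplotlib 3.10.9.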

Additional observations from a re-analysis of the deposited data

How the results depend on the processing

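Fos, Egr1 and Zfp36 stayed lower in AKR F1 and Jun, Junb, Jund and Ier2 higher in all 14 alternatives, as did Fosb and Fosl2 in the 13 that held them. Atf3 (-0.14) ran from -0.29 to 0.05 when single arrays were left out, turning to 0.05 without DBA F1 replicate 1, and it turned to 0.10 without AKR F1 replicate 2 as well; the cause was not tested. The members with an unadjusted limma p under 0.05 numbered 4 (26.1% of all probe sets passed), and 7 with quantile normalization (22.5%), cyclic loess normalization (23.2%) and array weights (38.9%). Leaving out 1 array gave 4 to 6, with 12.1% to 29.6% of all probe sets passing. The median over members was -0.095 to 0.10 without 1 array and 0.18 without AKR F1 replicate 2 and DBA F1 replicate 1 together. Calls over all probe sets, 22 by limma, were 34 with cyclic loess, 36 with quantile normalization, 102 of 11313 probe sets above the median level, 810 at an adjusted p of 0.10, 3712 with array weights and 657 without both arrays, with a range of 1 to 263 when single arrays were left out. Averaging each gene's probe sets left 12393 tests and 1 call. Array weights were estimated gene by gene because the default estimate did not converge. Precision rests on 3 arrays a cross.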
